A study of Homo sapiens with 14 samples.

Results

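The 10 long noncoding RNAs described here, which are discussed in prostate cancer or in nuclear RNA biology, were followed in 22Rv1 cells, an established human prostate cancer cell line, after loss or mutation of FOXA1. They were chosen by gene name, with earlier results of these data known. They are DSCAM-AS1, PCAT1, PCA3, PCGEM1, PART1, MALAT1, NEAT1, GAS5, DANCR and HLX-AS1. All 10 were found by their Ensembl IDs among the 57904 features of the knockdown counts and the 57905 features of the degradation counts. The series holds 14 RNA sequencing libraries in 7 groups of 2. The shFOXA1 group had received FOXA1 knockdown lentivirus and the shCtrl group control lentivirus, both on otherwise wild-type 22Rv1 cells (the shCtrl titles say 22Rv2, the other labels 22Rv1). Cells carrying FOXA1_dTAG, a FOXA1 fusion that a small molecule marks for degradation, were taken at 0 h, 1 h and 24 h. The last pair of groups also carries FOXA1_dTAG and compares an R219 mutation of FOXA1 (R219S) with WT. The labels say that the dTAG, R219S and WT samples received dTAG or DMSO, without saying which of the R219S and WT samples received which. Nothing in the labels says whether the 2 libraries of a group came from separate cultures or how many clones the lines are, so p-values measure the spread between these libraries, which may be technical. The counts of the R219S comparison list 20243 genes by symbol, 103 of them long noncoding by RefSeq, and none of the 10 described here. The transcripts were therefore measured in 10 libraries of 32092815 to 36531941 counted reads.

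FOXA1 is a forkhead transcription factor that opens chromatin in luminal prostate cells and helps the androgen receptor to reach its sites. Long noncoding RNAs are transcribed and usually spliced like mRNAs but act as RNA, or by the act of their transcription. PCA3 is measured in urine as a prostate cancer marker, PCGEM1 and PART1 are prostate-enriched transcripts that respond to androgen, and PCAT1 lies near MYC and was described from prostate tumours. DSCAM-AS1 is best known from oestrogen receptor-positive breast cancer. MALAT1 and NEAT1 are abundant, nuclear and encoded side by side: MALAT1 gathers in nuclear speckles, and NEAT1 is the scaffold of paraspeckles. GAS5 and DANCR host small nucleolar RNAs in their introns, and spliced GAS5 is degraded by nonsense-mediated decay in growing cells.

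Promoter windows of 300 bases ran from 250 before to 50 after the annotated start. Those used here, 8 in all for 6 of the 10 transcripts, were taken from RefSeq on GRCh38.p14. They were searched on both strands for the forkhead word TGTTTAC and its variants (TATTTAC, then TGTTTGC, then TATTTGC) and for the androgen receptor core word AGAACA, none of which overlap one another where found. Only the 3 windows that held a match are shown. The match is in capitals, and each window is written 5′ to 3′ on the gene's strand.
PCGEM1 (chr2:192749595-192749894, plus strand, AGAACA read on the other strand): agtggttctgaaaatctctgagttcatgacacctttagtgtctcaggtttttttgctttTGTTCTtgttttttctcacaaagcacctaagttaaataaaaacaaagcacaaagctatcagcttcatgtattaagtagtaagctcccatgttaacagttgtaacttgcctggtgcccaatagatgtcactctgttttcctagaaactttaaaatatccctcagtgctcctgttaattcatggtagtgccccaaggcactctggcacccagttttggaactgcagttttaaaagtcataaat
MALAT1 (chr11:65498795-65499094, plus strand, AGAACA read on the other strand): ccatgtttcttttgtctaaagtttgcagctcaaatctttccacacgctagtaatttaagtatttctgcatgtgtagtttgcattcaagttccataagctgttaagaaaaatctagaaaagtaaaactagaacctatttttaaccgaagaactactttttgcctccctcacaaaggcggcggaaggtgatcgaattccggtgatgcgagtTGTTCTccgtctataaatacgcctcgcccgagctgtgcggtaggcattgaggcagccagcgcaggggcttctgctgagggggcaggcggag
GAS5 (chr1:173868996-173869295, minus strand, TGTTTGC): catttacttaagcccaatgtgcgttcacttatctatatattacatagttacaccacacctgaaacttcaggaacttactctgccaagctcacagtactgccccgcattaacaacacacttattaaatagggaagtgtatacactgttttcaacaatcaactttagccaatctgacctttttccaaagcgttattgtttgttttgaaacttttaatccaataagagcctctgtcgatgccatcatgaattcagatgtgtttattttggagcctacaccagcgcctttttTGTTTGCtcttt
The PCGEM1 match begins at base -191 and the MALAT1 match at base -41 from the start, while the GAS5 match begins at base 39, inside the transcribed part. Among the 35116 RefSeq windows of this length that were searched, 12.1% held at least 1 of the 4 forkhead words (3.42% TGTTTAC, 2.67% TATTTAC, 3.89% TGTTTGC, 2.97% TATTTGC) and 14.8% held AGAACA. The windows of PCA3, DANCR and PART1 and the other MALAT1 window held none of these letters. The windows used here include none of DSCAM-AS1, PCAT1, NEAT1 or HLX-AS1. Each match describes letters in the window and not a bound site.

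The transcripts differed widely in level. Per kilobase of annotated exon (GENCODE 29, which may not be the annotation used for counting), GAS5 had 155 ± 6.74 CPM per kb at 0 h (CPM, counts per 1000000 counted reads), MALAT1 119 ± 3.87, NEAT1 40.0 ± 2.33 and DANCR 32.9 ± 0.902 (SD, n = 2 each). DSCAM-AS1 followed with 2.11 ± 0.0858 CPM per kb, PART1 with 1.77 ± 0.242 and HLX-AS1 with 1.27 ± 0.578; the SDs of PART1 and HLX-AS1 overlap. PCAT1 had 0.111 ± 8.53e-04 CPM per kb, PCGEM1 0.0594 ± 0.0135 and PCA3 0.0144 ± 0.00614. In shCtrl GAS5 was at 80.3 ± 3.90 and MALAT1 at 68.2 ± 9.10 CPM per kb, with SDs that together exceed the gap between them, and DANCR (17.6 ± 0.0866) stood above NEAT1 (15.7 ± 0.682). The order depends on the length used, which joins all annotated exons of a gene: 22.77 kb for NEAT1 and 2.29 kb for DANCR. Without division by length, NEAT1 had a mean of 357 CPM and DANCR of 40.1 CPM in shCtrl. Which isoforms were present was not examined. The dTAG line and the shCtrl cells differed in several of these levels before any loss of FOXA1: PART1 had 643 and 549 counts at 0 h and 105 and 105 counts in shCtrl, and DSCAM-AS1 had 3.63 and 3.84 CPM at 0 h and 0.549 and 0.299 CPM in shCtrl. That difference was not tested, and these levels were normalised separately in each experiment.

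**Figure D1:**
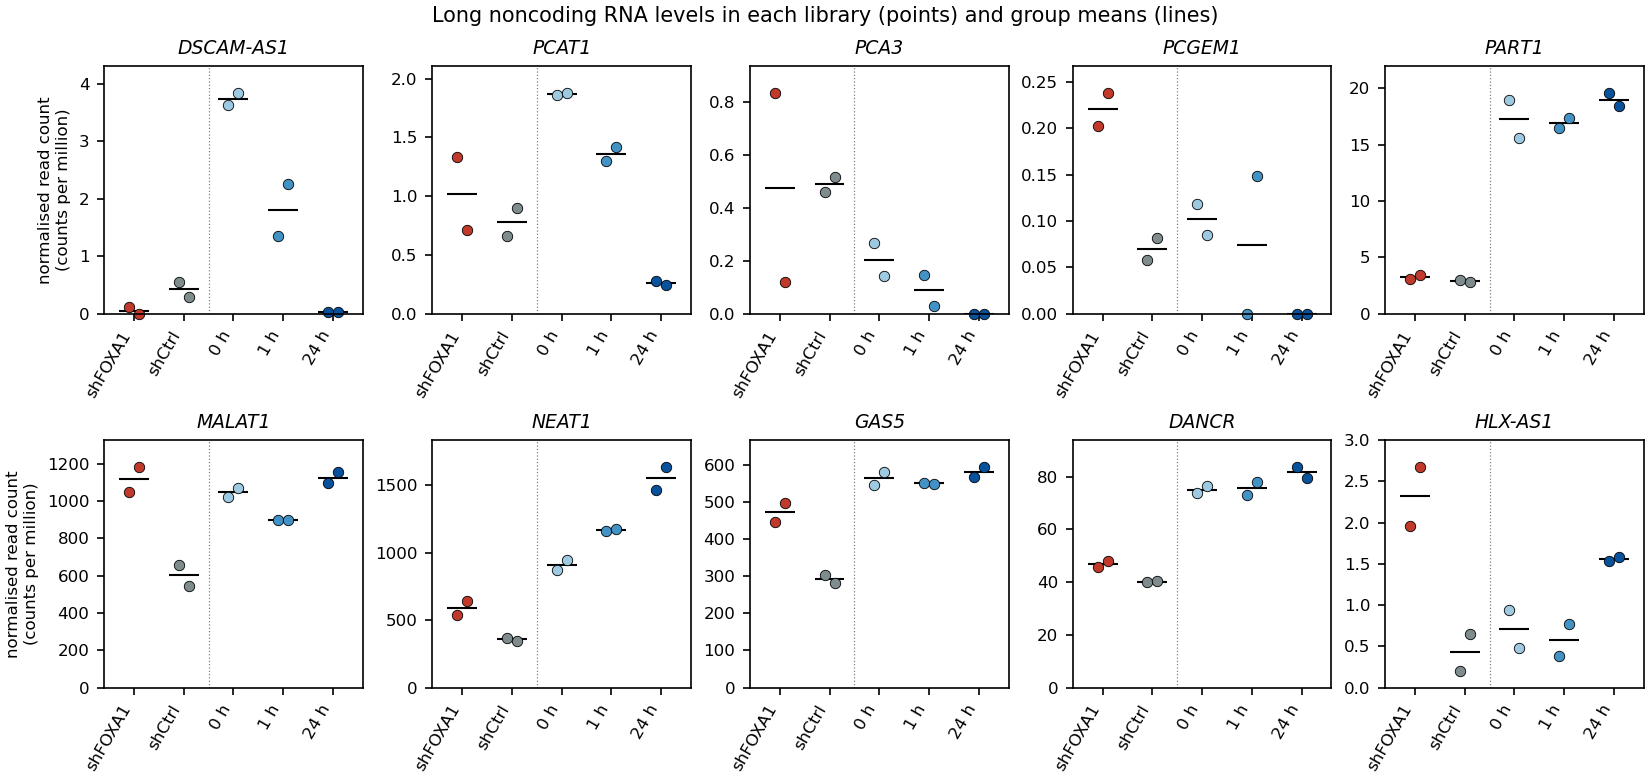
Normalised read counts (CPM, linear axes from 0) of the 10 long noncoding RNAs in each of 10 libraries. Points are libraries, short lines are group means (n = 2), and the dotted line parts the knockdown libraries from the dTAG libraries at 0 h, 1 h and 24 h; DSCAM-AS1, PCAT1, PCA3 and PCGEM1 are at their lowest dTAG levels at 24 h, whereas NEAT1 is at its highest.

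FOXA1 mRNA itself was lower in shFOXA1 than in shCtrl by log2 -0.47 ± 0.062 (edgeR quasi-likelihood test, adjusted p = 2.75e-04), with 299 and 305 CPM in shFOXA1 against 402 and 435 CPM in shCtrl. In the dTAG line the mRNA was -0.0057 ± 0.033 at 1 h and 0.23 ± 0.039 at 24 h relative to 0 h; it does not measure the degraded protein. Luminal prostate markers (8 of 8 detected) summed to 2228 to 4948 CPM in these 10 libraries, higher in shFOXA1 (2820 to 3037 CPM) than in shCtrl (2228 to 2286 CPM) and at 24 h (4795 to 4948 CPM) than at 0 h (4218 to 4227 CPM). Basal markers (2 of 3 detected) stayed at or under 0.773 CPM, endothelial markers at or under 0.398 CPM, leukocyte markers at or under 0.778 CPM and fibroblast markers (4 of 4 detected) at 16.5 to 19.4 CPM. Fibroblast markers summed to more in the separately normalised WT (209 to 217 CPM) and R219S (232 to 239 CPM) libraries, with 1 of the 4 at 0 counts. The cause of that difference was not tested. In bulk RNA, fewer cells that make a transcript and less of it per cell cannot be told apart. Spread within a group was widest in shFOXA1 (chi-square per degree of freedom between its libraries 11.83, against 2.04 to 4.04 in the other 6 groups).

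The knockdown comparison asked which of these transcripts differ when FOXA1 mRNA is reduced by a hairpin. Of 9 transcripts that passed the filter on low counts, 5 were higher in shFOXA1 and 1 was lower at an adjusted p under 0.05, beside 23.6% of all 19128 genes tested (11.3% higher, 12.3% lower). The median log2 fold change was 0.38 over those 9 and 0.0100 over all genes tested. The 5 include HLX-AS1, whose rise was known before it was chosen, so this count and median do not test the set. The count of called transcripts was 4 without shCtrl replicate 1 or 2, 5 without shFOXA1 replicate 2 and 7 without shFOXA1 replicate 1.

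Among the abundant nuclear transcripts, MALAT1 had 1049 and 1185 CPM in shFOXA1 against 659 and 545 CPM in shCtrl. NEAT1 had 539 and 645 CPM in shFOXA1 against 368 and 346 CPM in shCtrl. The groups of both transcripts do not overlap. Here and below, a lack of overlap between groups of 2 libraries is a description and not a test. The share of all genes without overlap was not counted. Both transcripts rose: MALAT1 by log2 0.89 ± 0.10 (adjusted p = 6.02e-04) and NEAT1 by 0.73 ± 0.083 (adjusted p = 2.33e-04). GAS5, the small nucleolar RNA host, had 446 and 498 CPM in shFOXA1 against 302 and 282 CPM in shCtrl, also without overlap. It rose by log2 0.70 ± 0.069 (adjusted p = 4.65e-05). MALAT1, NEAT1 and GAS5 were called in each of 11 alternative analyses, with log2 fold changes of 0.76 to 1.04 for MALAT1, 0.60 to 0.86 for NEAT1 and 0.62 to 0.78 for GAS5. DANCR, the other small nucleolar RNA host of the set, had 45.9 and 48.1 CPM in shFOXA1 against 40.0 and 40.3 CPM in shCtrl. Its rise was small, log2 0.23 ± 0.073 (adjusted p = 0.0396), and the call was lost with DESeq2 (adjusted p = 0.110), without shCtrl replicate 1 (0.249) or 2 (0.259) and after correcting GC content and length dependence (0.179).

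DSCAM-AS1 was the transcript of this set that fell in shFOXA1. It had 4 and 0 counts (0.115 and 0 CPM) in shFOXA1 against 19 and 11 counts (0.549 and 0.299 CPM) in shCtrl. Counts were few, and the groups do not overlap. The ratio of summed counts was 0.139, with an exact 95% interval of 0.0357 to 0.395 that covers counting error only. The log2 fold change was -2.78 ± 0.86 (adjusted p = 0.0347). DESeq2 gave no adjusted p for DSCAM-AS1, and it did not pass a filter of at least 1 CPM in at least 2 libraries. That left 9 alternative analyses. The call was lost without shFOXA1 replicate 2 (adjusted p = 0.0883), shCtrl replicate 1 (0.209) or shCtrl replicate 2 (0.0671), and the value was -6.89 without shFOXA1 replicate 1.

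HLX-AS1, transcribed next to the homeobox gene HLX, had 68 and 90 counts (1.96 and 2.68 CPM) in shFOXA1 against 7 and 24 counts (0.202 and 0.653 CPM) in shCtrl. The log2 fold change was 2.41 ± 0.42 (adjusted p = 0.00212), and it ranged from 1.82 without shCtrl replicate 1 to 3.49 without shCtrl replicate 2. This rise was known before HLX-AS1 was chosen. PCAT1 had 1.33 and 0.714 CPM in shFOXA1 against 0.664 and 0.898 CPM in shCtrl, so that the groups overlap (log2 0.38 ± 0.39, adjusted p = 0.518). PART1 had 3.08 and 3.48 CPM in shFOXA1 against 3.03 and 2.86 CPM in shCtrl (log2 0.16 ± 0.19, adjusted p = 0.612). For PART1 the 95% interval from the standard error runs from -0.22 to 0.54.

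PCA3 was uneven within shFOXA1: replicate 1 had 29 counts and replicate 2 had 4, against 16 and 19 counts in shCtrl. The log2 fold change of -0.027 ± 0.69 (adjusted p = 0.984) therefore averages a library above and a library below both controls, and it was -2.00 (adjusted p = 0.0410) without shFOXA1 replicate 1 and 0.77 (adjusted p = 0.281) without shFOXA1 replicate 2. PCGEM1 did not pass the filter, with 7 and 8 counts in shFOXA1 against 2 and 3 counts in shCtrl. The ratio of its summed counts was 3.13, with an exact 95% interval of 1.08 to 11.0 for counting error alone, and without any filter its adjusted p was 0.379.

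**Figure D2:**
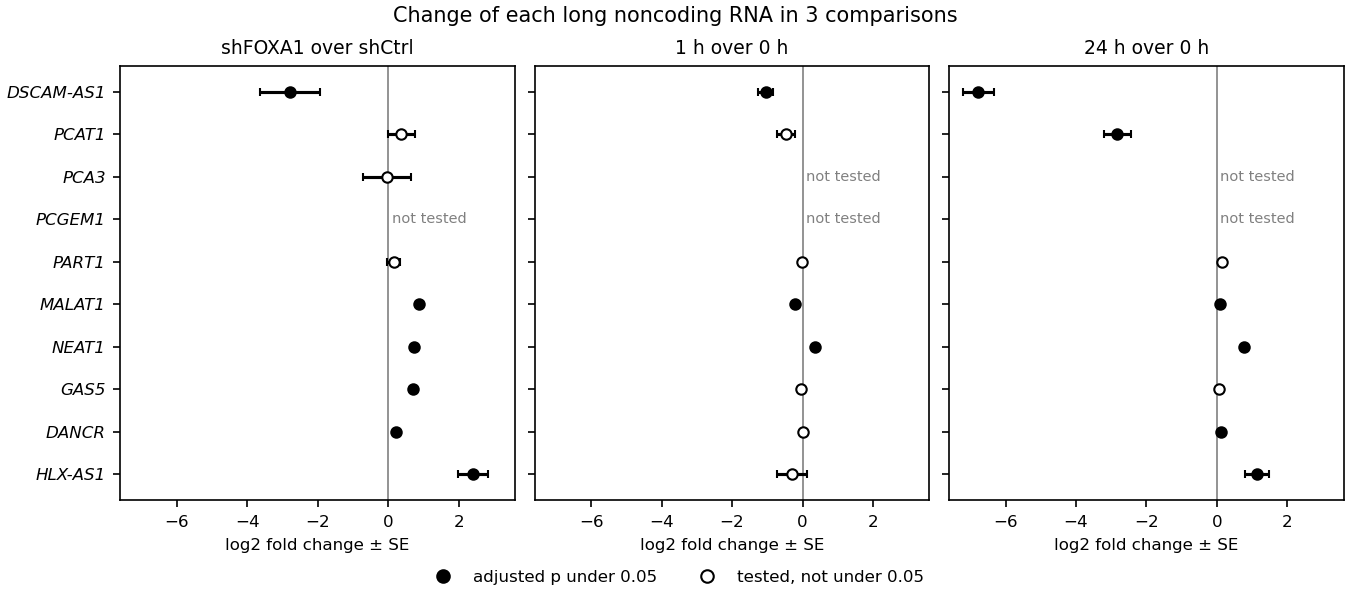
Log2 fold changes (horizontal axes; bars, standard error) of the 10 long noncoding RNAs in shFOXA1 over shCtrl, 1 h over 0 h and 24 h over 0 h, with 2 libraries per group. Filled points have an adjusted p under 0.05, open points do not, and transcripts that did not pass the filter on low counts are marked as not tested; DSCAM-AS1 lies left of 0 in all 3 panels, at -2.78, -1.05 and -6.77.

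The 1 h comparison asked which transcripts differ soon after degradation of the FOXA1 fusion begins. No vehicle group held for 1 h is named in the titles, so handling and the degrader cannot be told apart from loss of FOXA1. Of 8 transcripts that passed the filter, NEAT1 was higher at 1 h and DSCAM-AS1 and MALAT1 were lower, beside 19.8% of all 19397 genes tested (10.7% higher, 9.12% lower). The median log2 fold change was -0.13 over the 8 and 7.4e-04 over all genes. DSCAM-AS1 had 46 and 76 counts (1.36 and 2.25 CPM) at 1 h against 123 and 135 counts (3.63 and 3.84 CPM) at 0 h. It fell by 1.05 ± 0.21 on the log2 scale (adjusted p = 7.96e-05), and the change was -0.73 without 1 h replicate 1 and -1.46 without 1 h replicate 2. DESeq2 gave no adjusted p for DSCAM-AS1 at 1 h.

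NEAT1 had 1160 and 1176 CPM at 1 h against 872 and 947 CPM at 0 h, a rise of log2 0.36 ± 0.027 (adjusted p = 6.03e-17). MALAT1 had 898 and 901 CPM at 1 h against 1023 and 1072 CPM at 0 h, a fall of log2 -0.22 ± 0.026 (adjusted p = 3.50e-11). Although their genes adjoin, the adjoining transcripts moved in opposite directions, with no overlap between the groups of either. Changes at 1 h went with GC content across genes (Spearman rho 0.323) and against length (rho -0.16); genes are not independent replicates. After a correction for both, NEAT1 was at 0.62 and MALAT1 at -0.089, and both kept an adjusted p under 0.05.

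The other transcripts did not pass the test at 1 h. PCAT1 had 1.30 and 1.42 CPM at 1 h against 1.86 and 1.88 CPM at 0 h (log2 -0.46 ± 0.26, adjusted p = 0.243), groups that do not overlap. HLX-AS1 had 0.384 and 0.770 CPM at 1 h against 0.944 and 0.484 CPM at 0 h (log2 -0.30 ± 0.43, adjusted p = 0.702). GAS5 was at log2 -0.034 ± 0.028 (adjusted p = 0.441; -0.077 with an adjusted p of 0.00370 without 0 h replicate 1), DANCR at 0.0081 ± 0.044 (adjusted p = 0.936) and PART1 at -0.027 ± 0.086 (adjusted p = 0.879). For GAS5 the 95% interval runs from -0.089 to 0.020 and for DANCR from -0.078 to 0.094. PCA3 had 5 and 1 counts at 1 h against 9 and 5 at 0 h, and PCGEM1 had 0 and 5 counts at 1 h against 4 and 3 at 0 h; neither passed the filter.

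The 24 h comparison asked which transcripts differ after a day of degradation, and it shares its 0 h libraries with the 1 h comparison. DSCAM-AS1 and PCAT1 were lower at 24 h and NEAT1, HLX-AS1, MALAT1 and DANCR were higher, 6 of the 8 that passed the filter, beside 46.9% of all 19607 genes tested (22.1% higher, 24.8% lower). The median log2 fold change was 0.11 over the 8 and 0.0056 over all genes. No vehicle group held for 24 h is named in the titles, so time in culture and the degrader cannot be told apart from loss of FOXA1.

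DSCAM-AS1 had 1 and 1 counts at 24 h against 123 and 135 counts at 0 h. The ratio of summed counts was 0.00816, with an exact 95% interval of 9.83e-04 to 0.0298, which is 123-fold lower with an interval of 33.6 to 1017. The fitted log2 fold change was -6.77 ± 0.45 (adjusted p = 7.17e-14), the 10th lowest of the 19607 genes. It ranged from -6.94 to -6.61 over 11 alternative analyses. PCAT1, transcribed near MYC, had 9 and 8 counts (0.276 and 0.243 CPM) at 24 h against 63 and 66 counts (1.86 and 1.88 CPM) at 0 h. It fell by 2.83 ± 0.38 on the log2 scale (adjusted p = 1.85e-07), and it ranged from -2.92 to -2.72 over 11 alternative analyses.

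The 2 prostate-enriched transcripts with the lowest counts had none left at 24 h. PCA3 had 0 and 0 counts at 24 h against 9 and 5 at 0 h, which is 4.43-fold lower when 3 counts over the 24 h group are taken as the limit that a count of 0 allows. With the counting error of the 0 h group included, the exact 95% interval of the PCA3 ratio allows a fall of as little as 3.15-fold. PCGEM1 had 0 and 0 counts at 24 h against 4 and 3 at 0 h, 2.22-fold lower by the same limit and as little as 1.37-fold lower by the exact 95% interval. Neither passed the filter; without any filter PCA3 had an adjusted p of 0.0119 and PCGEM1 of 0.160. PART1, by contrast, had 640 and 606 counts at 24 h against 643 and 549 counts at 0 h (log2 0.14 ± 0.090, adjusted p = 0.220), with overlapping groups. Its adjusted p was 0.0361 without 0 h replicate 1 (log2 0.28) and 0.0386 after the GC and length correction (log2 0.22).

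NEAT1 had 1466 and 1639 CPM at 24 h against 872 and 947 CPM at 0 h, with no overlap. It rose by log2 0.77 ± 0.049 (adjusted p = 1.70e-09), and by 0.41 ± 0.060 relative to 1 h (adjusted p = 0.00129); relative to 1 h the call was lost after the GC and length correction (log2 0.18, adjusted p = 0.110). MALAT1 had 1095 and 1155 CPM at 24 h against 1023 and 1072 CPM at 0 h, a difference of log2 0.10 ± 0.035 (adjusted p = 0.0145). That call was lost without 24 h replicate 2 (adjusted p = 0.180) or 0 h replicate 1 (adjusted p = 0.216). DANCR had 83.9 and 79.4 CPM at 24 h against 73.7 and 76.6 CPM at 0 h (log2 0.12 ± 0.047, adjusted p = 0.0345), and its call was lost with DESeq2 (adjusted p = 0.162), without 24 h replicate 1 (0.299) or 0 h replicate 1 (0.215) and after the GC and length correction (0.0557).

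HLX-AS1 had 50 and 52 counts (1.53 and 1.58 CPM) at 24 h against 32 and 17 counts (0.944 and 0.484 CPM) at 0 h. The groups do not overlap, and the log2 fold change was 1.13 ± 0.34 (adjusted p = 0.00602). The adjusted p was 0.0829 with DESeq2 and 0.119 without 0 h replicate 2 (log2 0.72). GAS5 had 566 and 595 CPM at 24 h against 546 and 580 CPM at 0 h, overlapping groups (log2 0.046 ± 0.037, adjusted p = 0.330). It was at 0.21 (adjusted p = 1.43e-07) after the GC and length correction, which moves its call.

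Between 1 h and 24 h, 7 of the 8 tested transcripts were called, 5 higher and 2 lower at 24 h, beside 45.7% of all 20027 genes (21.2% higher, 24.5% lower). The log2 fold change of 24 h over 1 h was -5.72 ± 0.55 for DSCAM-AS1, -2.38 ± 0.38 for PCAT1, 1.42 ± 0.36 for HLX-AS1 and 0.32 ± 0.030 for MALAT1. MALAT1 was thus lower at 1 h than at either of the other times. GAS5 (0.078 ± 0.031) and DANCR (0.11 ± 0.045) had adjusted p-values of 0.0380 and 0.0413, each lost in at least 4 of 12 alternative analyses. HLX-AS1 lost its call without 1 h replicate 1 (adjusted p = 0.0550), and without that library 4 of the 8 were called.

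Set against each other in a fit of both experiments, the 24 h change and the knockdown change differed for 4 of 9 transcripts tested, all 4 lower in the 24 h change, beside 22.7% of 20795 genes (9.45% higher, 13.2% lower). The median difference was -0.78 over the 9 and -0.037 over all genes tested. GAS5 was at 0.046 ± 0.037 at 24 h and 0.70 ± 0.069 in the knockdown, a difference of -0.64 ± 0.081 (adjusted p = 6.62e-06). MALAT1 was at 0.10 ± 0.035 at 24 h and 0.89 ± 0.10 in the knockdown, a difference of -0.78 ± 0.13 (adjusted p = 0.00187). PCAT1 was at -2.83 ± 0.38 at 24 h and 0.38 ± 0.39 in the knockdown, a difference of -3.20 ± 0.54 (adjusted p = 1.65e-04). For DSCAM-AS1, lower in both, the difference was -3.99 ± 1.39 (adjusted p = 0.0431), a call lost in 7 of 14 alternative analyses and reversed to 0.087 without shFOXA1 replicate 1. NEAT1 was higher in both, by 0.77 at 24 h and 0.73 in the knockdown, and the difference of 0.055 ± 0.12 did not pass (adjusted p = 0.814; 95% interval from -0.19 to 0.30). HLX-AS1 was also higher in both, and its difference of -1.27 ± 0.57 did not pass (adjusted p = 0.126), though it did without shFOXA1 replicate 1 (adjusted p = 0.0413) or shCtrl replicate 2 (adjusted p = 0.0255). PCA3, with 0 counts at 24 h, had a fitted difference of -5.80 ± 2.12 that did not pass (adjusted p = 0.0610; 0.00194 without shFOXA1 replicate 2). Line, agent and time differ between these experiments, so they cannot be told apart in these differences.

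Several of the transcripts overlap or adjoin a protein-coding gene, and the strand setting of the counting is not given in the sources used here. Without strand, reads from an antisense transcript and from its partner cannot be told apart wherever their exons overlap. DSCAM, a cell adhesion gene that harbours DSCAM-AS1 on the other strand, had 1 and 2 counts at 24 h against 45 and 54 at 0 h. Its ratio was 0.0319 with an exact 95% interval of 0.00647 to 0.0960, and its fitted log2 fold change was -4.86 ± 0.58 (adjusted p = 2.71e-08). In shFOXA1 it had 10 and 5 counts against 18 and 17 in shCtrl (log2 -1.15 ± 0.53, adjusted p = 0.142), and at 1 h it was at -0.37 ± 0.30 (adjusted p = 0.450). In the R219S comparison, where DSCAM-AS1 is not listed, DSCAM had 0 and 1 counts in R219S against 154 and 90 in WT. That ratio was 0.00567, with an exact 95% interval of 1.43e-04 to 0.0319 (fitted log2 fold change -7.18 ± 0.53, adjusted p = 5.86e-36).

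PRUNE2, the gene within which PCA3 lies on the other strand, had 10.4 and 10.4 CPM at 24 h against 45.6 and 45.2 CPM at 0 h (log2 -2.12 ± 0.075, adjusted p = 6.66e-21). It had 16.0 and 18.1 CPM in R219S against 142 and 139 CPM in WT (log2 -3.04 ± 0.058, adjusted p = 7.66e-240). In shFOXA1 it had 205 and 172 CPM against 266 and 237 CPM in shCtrl (log2 -0.41 ± 0.089, adjusted p = 0.00915; 0.0887 without shCtrl replicate 1). PRUNE2 thus fell in all 3 of these comparisons, whereas PCA3 had 0 counts at 24 h and uneven counts in shFOXA1.

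HLX had 72.9 and 65.4 CPM at 0 h, 121 and 120 CPM at 1 h, and 172 and 166 CPM at 24 h. It rose by log2 0.80 ± 0.042 at 1 h (adjusted p = 1.87e-27) and by 1.29 ± 0.047 at 24 h (adjusted p = 1.47e-20). HLX counts came to 33.5 and 35.3 CPM in R219S against 9.93 and 10.8 CPM in WT (log2 1.74 ± 0.081, adjusted p = 2.60e-77). In shFOXA1 it had 30.1 and 66.4 CPM against 7.08 and 5.66 CPM in shCtrl; the libraries do not overlap, but the quasi-likelihood test gave log2 2.92 ± 0.62 with an adjusted p of 0.0985, while DESeq2 gave 4.31e-06. HLX therefore rose at 1 h, when HLX-AS1 was at -0.30 ± 0.43, and both were higher at 24 h.

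**Figure D3:**
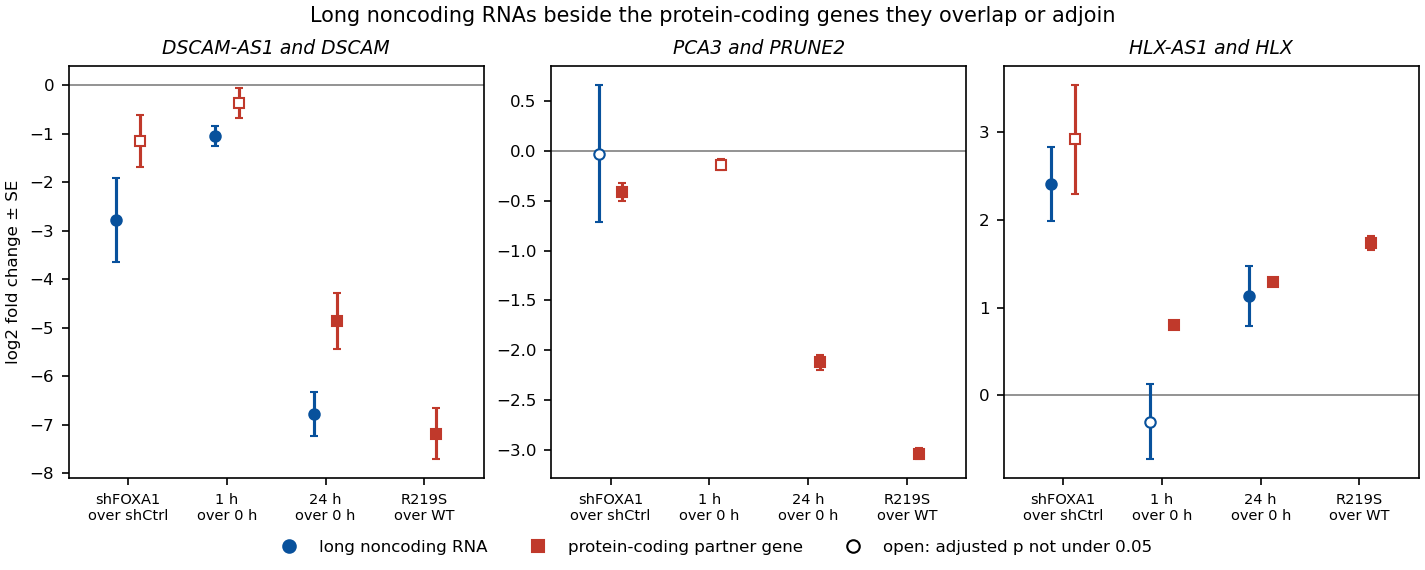
Log2 fold changes (vertical axes with a separate range in each panel; bars, standard error; 2 libraries per group) of DSCAM-AS1, PCA3 and HLX-AS1 (circles) and of the protein-coding genes they overlap or adjoin (squares) in 4 comparisons. Filled marks have an adjusted p under 0.05 and open marks do not; the long noncoding RNAs have no value in R219S over WT, and PCA3 has none at 1 h and 24 h, where it did not pass the filter. DSCAM reaches -7.18, PRUNE2 -3.04 and HLX 1.74 in R219S over WT.

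Of the 10 neighbouring protein-coding genes in all, 5 were higher and 3 lower in R219S, beside 62.1% of 13990 genes tested (30.5% higher, 31.6% lower). At 24 h 5 were higher and 4 lower, beside 22.1% of all genes higher and 24.8% lower. MYC, the neighbour of PCAT1, was at -0.60 ± 0.035 at 1 h (adjusted p = 4.05e-26), -0.27 ± 0.040 at 24 h (adjusted p = 1.56e-06), 0.59 ± 0.066 in the knockdown (adjusted p = 1.05e-04) and 0.64 ± 0.039 in R219S (adjusted p = 9.56e-50). Beside NEAT1 and MALAT1, FRMD8 was at 0.59 ± 0.051 and LTBP3 at 0.75 ± 0.040 at 24 h. In shFOXA1, where NEAT1 and MALAT1 were also higher, FRMD8 was at -0.077 ± 0.074 and was not called (quasi-likelihood test, adjusted p = 0.496). LTBP3 was at 0.33 ± 0.064 there (adjusted p = 0.00312), a call lost without shCtrl replicate 1 or 2. PDE4D, near PART1, fell by 0.61 ± 0.085 at 24 h and by 1.13 ± 0.071 in R219S on the log2 scale, while PART1 did not pass the test at 24 h. ZBTB37, the head-to-head neighbour of GAS5, was at 0.39 ± 0.041 and USP46, near DANCR, at 0.30 ± 0.045 at 24 h, and their adjusted p-values were 1.84e-09 for ZBTB37 and 1.30e-06 for USP46.

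GAS5 and DANCR were set beside 18 other small nucleolar RNA hosts and related transcripts with a terminal oligopyrimidine start, a list chosen with earlier results known. Of all genes tested, 11.3% were called higher and 12.3% lower in shFOXA1, and 10.7% higher and 9.12% lower at 1 h. The shares were 22.1% higher and 24.8% lower at 24 h. For the 24 h change minus the knockdown change they were 9.45% higher and 13.2% lower. In shFOXA1, 8 of 17 matched hosts were higher and 0 were lower (median log2 0.23, against 0.0100 over all genes), with 3 called without shCtrl replicate 2. ZFAS1 rose by 0.68 ± 0.091, EPB41L4A-AS1 by 0.65 ± 0.12, SNHG8 by 0.60 ± 0.10 and SNHG16 by 0.34 ± 0.085, the last with an adjusted p of 0.258 without shCtrl replicate 2. At 24 h, 1 was higher and 8 were lower (median -0.21, against 0.0056), among them SNHG3 (-0.70 ± 0.058) and SNHG15 (-0.66 ± 0.053), with SNHG7 higher (0.71 ± 0.043). SNHG9 (-0.91 ± 0.31) lost its call with DESeq2 (adjusted p = 0.146), without 24 h replicate 2 (0.149) or without 0 h replicate 1 (0.0929). At 1 h, 2 were higher and 5 lower (median -0.10, against 7.4e-04), with SNHG17 at -0.40 ± 0.056, SNHG3 at -0.31 ± 0.049 and SNHG15 at -0.29 ± 0.047. The 24 h change minus the knockdown change was negative and called for 10 of 17 and positive and called for 1 (median -0.52, against -0.037), with SNHG3 at -0.98 ± 0.11 and SNHG15 at -0.94 ± 0.10. GAS5 and DANCR were among the transcripts higher in shFOXA1, but they were not among those lower at 24 h.

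The prostate transcripts were set beside 20 other long noncoding RNAs named in prostate cancer, of which 13 matched and 7 to 10 passed the filter. Of all genes, 23.6% were called in shFOXA1 and 19.8% at 1 h. In shFOXA1, 2 were higher and 1 lower of 7 (median log2 0.46), and none was called without shCtrl replicate 1 or 2. DRAIC, a transcript that is lost in advanced prostate cancer, had 4.78 and 2.38 CPM in shFOXA1 against 8.66 and 8.40 CPM in shCtrl (log2 -1.25 ± 0.28, adjusted p = 0.0180; 0.127 without shCtrl replicate 1 and 0.137 without shCtrl replicate 2). It had 11 and 7 counts at 24 h against 37 and 27 at 0 h (log2 -1.74 ± 0.46, adjusted p = 0.00233). SOCS2-AS1, an androgen-induced antisense transcript, had 33.9 and 32.9 CPM at 24 h against 14.2 and 13.7 CPM at 0 h (log2 1.26 ± 0.076, adjusted p = 5.92e-15). It had 21 and 73 counts in shFOXA1 against 0 and 5 in shCtrl, a ratio of 19.6 with an exact 95% interval of 8.13 to 61.9 (adjusted p = 0.0365; 0.169 without shCtrl replicate 1 and 0.105 without shCtrl replicate 2). PCAT6 (0.89 ± 0.25) was also called in shFOXA1 (adjusted p = 0.0214), which was lost with DESeq2 and in 3 of the 4 analyses that leave out a library. At 24 h, 3 were higher and 1 lower of 9 (median 0.30; 46.9% of all genes called), and 6 higher and 1 lower after the GC and length correction, with ARLNC1, an androgen receptor-regulated transcript, at 0.73 ± 0.14 and TRPM2-AS at 0.61 ± 0.12. At 1 h, SOCS2-AS1 (0.45 ± 0.085) was the 1 called of 8 (median -0.047).

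NEAT1 and MALAT1 were set beside protein genes of the bodies they mark. Of all genes tested, 11.3% were called higher and 12.3% lower in shFOXA1, and 10.7% higher and 9.12% lower at 1 h. The shares were 22.1% higher and 24.8% lower at 24 h. Of 15 paraspeckle protein genes matched, 1 was higher and 11 were lower at 24 h (median log2 -0.16, against 0.0056 over all genes), while NEAT1 was higher. RBM14 was at -0.41 ± 0.047, NUDT21 at -0.31 ± 0.044 and HNRNPH3 at -0.22 ± 0.042 (adjusted p = 0.0626 after the GC and length correction). In shFOXA1, where NEAT1 was also higher, PSPC1 was the 1 called (-0.34 ± 0.063) and the median was -0.018. Without shFOXA1 replicate 2 there were 2. At 1 h, 1 was higher and 4 were lower (3 called without 1 h replicate 1 or 2; median -0.050), with PSPC1 at 0.30 ± 0.046 and SFPQ at -0.17 ± 0.027. In R219S, 9 of 16 were higher and 2 lower (median 0.12, against 0.0034), beside 30.5% of all genes higher and 31.6% lower. Fewer were called without R219S replicate 2. In R219S PSPC1 was at 0.69 ± 0.056 and SFPQ at 0.62 ± 0.039.

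Of 18 nuclear speckle protein genes, 1 was higher and 11 were lower at 1 h, beside 10.7% of all genes higher and 9.12% lower. Their median log2 fold change at 1 h was -0.10, against 7.4e-04 over all genes, and MALAT1 was lower too. SRSF7 was at -0.38 ± 0.032, the speckle scaffold SON at -0.30 ± 0.029, SRSF2 at -0.19 ± 0.035 and SRRM2 at -0.14 ± 0.029. The number called at 1 h was 5 without 1 h replicate 1 and 6 without 1 h replicate 2. At 24 h, 5 were higher and 6 lower (median -0.0039), beside 22.1% of all genes higher and 24.8% lower. The splicing kinases CLK1 (0.45 ± 0.040) and CLK4 (0.55 ± 0.070) were higher at 24 h and SRSF7 (-0.57 ± 0.040) lower. In shFOXA1, SRRM1 (0.42 ± 0.080) and SRSF5 (0.33 ± 0.066) were higher and SRSF2 (-0.28 ± 0.066) and SON (-0.18 ± 0.059) lower. These 4 of 18 called in shFOXA1 (median 0.036) were near the 23.6% of all genes called there. Leaving out shCtrl replicate 1 gave 0, leaving out shCtrl replicate 2 gave 1, and 9 were called when shFOXA1 replicate 1 was left out.

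**Figure D4:**
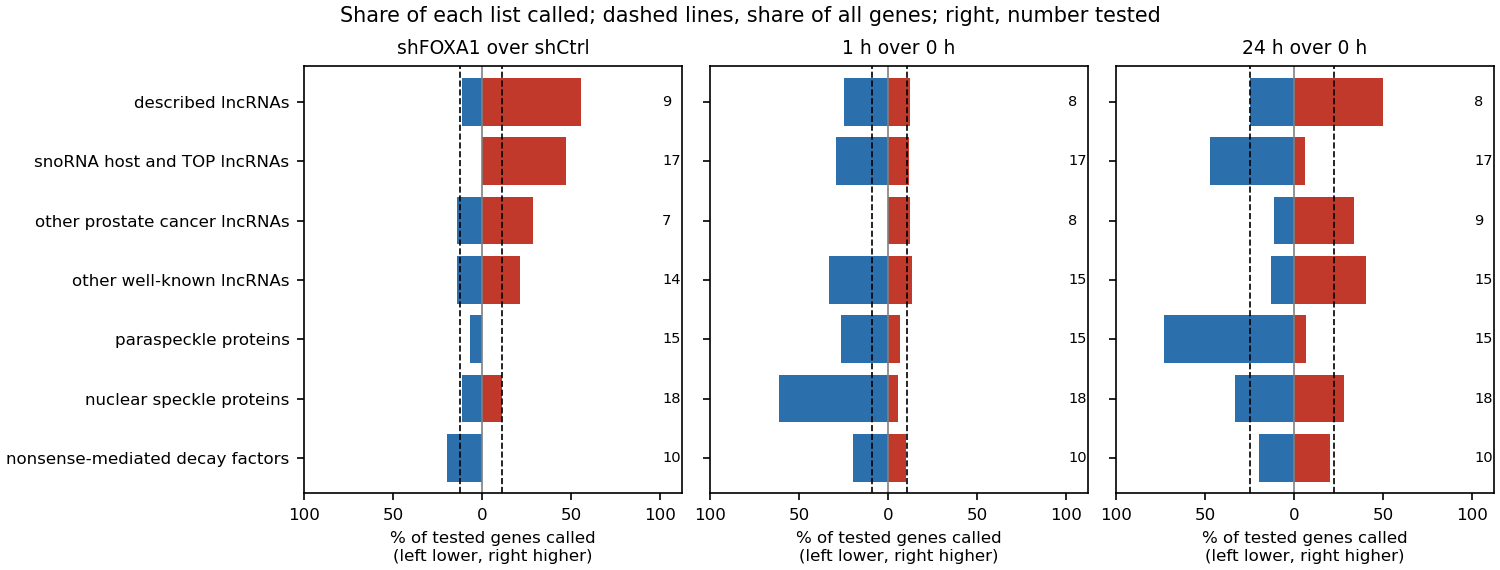
Share of tested genes called at an adjusted p under 0.05, lower to the left and higher to the right, for the long noncoding RNAs described here and for 6 lists, in shFOXA1 over shCtrl, 1 h over 0 h and 24 h over 0 h. Dashed lines are the shares over all genes tested (12.3% lower and 11.3% higher in shFOXA1) and the numbers at the right are the genes tested; 8 of 17 small nucleolar RNA hosts are higher in shFOXA1, and 8 of 17 are lower at 24 h.

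The genes whose levels followed each called transcript most closely were sought among 11251 genes with a mean of at least 5 CPM in both experiments, by Pearson's r of log2 (CPM + 1) over the 10 libraries centred on the mean of their own experiment. The points share libraries and controls, so r is a description. NEAT1 was closest to PNMA8A (r = 0.990), RPS6KA1 (0.990) and LTO1 (0.987), and MALAT1 to SESN3 (0.982), PTOV1-AS2 (0.976) and THBS1 (0.970). GAS5 was closest to EIF4A2 (0.990), DSCAM-AS1 to CCNE2 (0.987), PCAT1 to TRUB1 (0.989), DANCR to JADE2 (0.962) and HLX-AS1 to KDM4C (0.978). MALAT1 and NEAT1 shared none of their 3 closest genes. How often other pairs of transcripts share any was not examined.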

How the data were processed

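RNA sequencing libraries of total RNA were analysed as raw counts per gene, the unit deposited by the authors; per the submitters' processing notes, STAR, featureCounts, DESeq2 and hg19 were used, without stated roles, and versions, annotation and strand setting are not given in the sources used here. The 10 members were matched by Ensembl ID. The 0 h counts of both dTAG tables were identical for all 57905 features and were used once. Genes were filtered with filterByExpr, scaled by TMM and tested with edgeR 4.0.16 (limma 3.58.1, R 4.3.3) by glmQLFit and glmQLFTest, with Benjamini-Hochberg adjustment over all genes tested and a threshold of 0.05. Fits used the 4 libraries of a comparison, except that 24 h over 1 h was fitted on all dTAG libraries and the difference between the 24 h and knockdown changes on the libraries of both. CPM uses TMM-scaled library sizes; ± is the SD for levels and the standard error for log2 fold changes. Library totals were 21560090 to 38465155 counts, and intervals of count ratios cover counting error only, since reads carry no molecular identifiers. DESeq2 1.42.0, RLE scaling, other filters, the replicate block and leaving out each library were tried; a GC content and length correction and a joint fit were added after seeing the data. Members and gene lists were chosen with earlier results of these data known. From each list at most 4 called genes with the largest change are named, and all neighbouring genes were tested; the values of some list genes are not reported here. The fits were checked on simulated data. Coordinates come from RefSeq on GRCh38.p14, not from the files' build.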

Additional observations from a re-analysis of the deposited data

Results flagged for a closer look

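For 4 of the transcripts, the change at 24 h and the change in shFOXA1 differed by the test of the difference itself (edgeR's quasi-likelihood test, adjusted over all genes). The 24 h log2 fold change minus the knockdown log2 fold change was -3.99 for DSCAM-AS1, -3.20 for PCAT1, -0.78 for MALAT1 and -0.64 for GAS5. DSCAM-AS1 was lower in both experiments, PCAT1 was lower at 24 h and not called in shFOXA1, and MALAT1 and GAS5 were higher in shFOXA1 by more than at 24 h. The PCAT1, MALAT1 and GAS5 differences were called in each of 14 alternative analyses, and the DSCAM-AS1 difference in 7 of 14.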

How the results depend on the processing

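The 26 called values of the described transcripts were followed through 302 alternative values: 269 stayed on their side of the threshold in the same direction, 32 lost the call and 1 reversed. Genes called in shFOXA1 (4506) ranged from 1311 to 6832 on leaving out a library, and those called at 1 h (3850) from 2252 to 3463, with 1851 by DESeq2. Transcripts called between 1 h and 24 h (7) ranged from 4 to 7. Leaving out a library gave log2 ranges that cross 0 in shFOXA1 for ZBTB37 (-0.074 to 0.18), PCAT1 (-0.13 to 0.76) and PCA3 (-2.00 to 0.77). At 1 h this held for FOXA1 (-0.017 to 0.0051), GAS5 (-0.077 to 0.0097), DANCR (-0.042 to 0.055), PART1 (-0.16 to 0.12) and HLX-AS1 (-0.88 to 0.25). For the 24 h minus knockdown difference it held for DSCAM-AS1 (-4.93 to 0.087), NEAT1 (-0.067 to 0.19) and PART1 (-0.14 to 0.14). The GC and length correction reversed PCA3 in shFOXA1 (0.035), and at 1 h CPSF6 (0.010), PRUNE2 (0.020), USP46 (0.019), FRMD8 (-5.5e-04), DANCR (-0.051) and PART1 (0.050). For the difference it reversed DANCR (0.014) and PART1 (0.036), and RLE scaling also reversed PART1 (0.0022). FOXA1 at 1 h was at 1.6e-04 without a filter. The cause of these reversals was not tested. Same-numbered libraries did not deviate together (correlations -0.016 to 0.034). The titles only number the libraries, and weak correlations cannot show whether they were paired. With the replicate block the called transcripts numbered 6 in shFOXA1, 3 at 1 h, 6 at 24 h, 7 between 1 h and 24 h and 3 for the difference, where DSCAM-AS1 was at -4.00 (adjusted p = 0.0515). Over all genes the block gave 4412 calls in shFOXA1, 3909 at 1 h, 9868 at 24 h, 9296 between 1 h and 24 h, 4552 for the difference and 8441 in R219S. No alternative could be given for the described transcripts in R219S, where none is listed. With 2 libraries per group and few counts for DSCAM-AS1, PCAT1, PCA3, PCGEM1 and HLX-AS1, depth limits their precision.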

Other observations

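Among 17 other well-known long noncoding RNAs, a list chosen with earlier results known, 3 were higher and 2 lower of 14 tested in shFOXA1 (median log2 0.031; 3 called without shCtrl replicate 2). The imprinted transcript H19 was at 1.41 ± 0.29 and PVT1, a neighbour of MYC, at 0.61 ± 0.079, while MIR22HG was at -0.80 ± 0.13 and CRNDE at -0.59 ± 0.12 (adjusted p = 0.0526 without shCtrl replicate 2). At 1 h, 2 were higher and 5 lower of 15 (median -0.016; 4 called by DESeq2 and 4 without 1 h replicate 1). MIR17HG, the host of a microRNA cluster, fell by 1.40 ± 0.12 on the log2 scale, and KCNQ1OT1 was at -0.64 ± 0.11 but at -0.091 (adjusted p = 0.687) after the GC and length correction. At 24 h, 6 were higher and 2 lower of 15 (median 0.15), beside 22.1% of all genes higher and 24.8% lower. MIR17HG was at -1.37 ± 0.13, H19 at 0.72 ± 0.17 (0.46, no longer called, without 24 h replicate 2) and CRNDE at 0.69 ± 0.10. Of all genes, 23.6% were called in shFOXA1 and 19.8% at 1 h.

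Of 10 nonsense-mediated decay factors, which take part in the turnover of spliced GAS5, UPF3B (-0.28 ± 0.079) and SMG1 (-0.20 ± 0.064) were lower in shFOXA1, and neither kept its call without shCtrl replicate 1 or 2, while 4 factors were called without shFOXA1 replicate 1. At 24 h, 2 were higher and 2 lower (2 called without 24 h replicate 2 or 0 h replicate 2), with UPF3B at -0.24 ± 0.067 (-0.060 with an adjusted p of 0.482 after the GC and length correction) and SMG1 at 0.19 ± 0.040. At 1 h, 1 was higher and 2 were lower, with SMG1 at -0.33 ± 0.037 and UPF1 at 0.14 ± 0.036. The UPF1 call was lost without 1 h replicate 2 (adjusted p = 0.131), without 0 h replicate 2 (0.0793) and after the GC and length correction (0.223). In R219S, 7 were higher and 0 lower, beside 30.5% of all genes higher and 31.6% lower, with SMG9 at 0.46 ± 0.063. Of all genes, 23.6% were called in shFOXA1, 19.8% at 1 h and 46.9% at 24 h.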
